A study of Mus musculus with 20 samples.

Results

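Ighm encodes the constant region of the immunoglobulin mu heavy chain, the heavy chain of IgM. It was measured by 11 of the 45101 probe sets on the arrays, taken as every probe set that the platform annotation gives the single symbol Ighm. A further 4 probe sets list Ighm beside other symbols and were not counted as members, and Ighmbp2 is another gene. Ighm was chosen by its log2 differences between diseased and healthy mice on these arrays, so the values of the 11 in that contrast are a description and carry no test.

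In experimental autoimmune encephalomyelitis (EAE), a model of multiple sclerosis, mice immunised with a myelin peptide develop inflammation of the central nervous system and paralysis. Affymetrix arrays measured RNA of tissue enriched for motor or for sensory cortex in 10 female C57Bl6 mice, 6 with EAE and 4 healthy, with 1 array per mouse and region, 20 in all. EAE mice were immunised at 8 to 12 weeks of age with MOG peptide, a fragment of a myelin glycoprotein. They received 100 µg of it in both flanks, 50 µg near the base of the tail, and pertussis toxin (400 ng) on day 0 and day 3. Tissue was taken on day 21 by the protocol, or on days 18 to 21 by another label, from mice with clinical grades between 2.5 and 3.5. Healthy mice, also listed at 8 to 12 weeks of age, lived in the same cages. They have no described mock injection, so immunisation and disease cannot be told apart. All mice were perfused with saline and then RNAlater before dissection, and they came from 2 cohorts of 3 EAE and 2 healthy mice each.

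IgM is the first antibody class that a developing B cell makes. On the surface of a B cell it forms the antigen receptor together with the signalling chains Cd79a and Cd79b, and plasma cells secrete it as a polymer joined by the J chain. Healthy brain tissue holds few B cells, and most of them lie in the meninges and vessels rather than in the parenchyma. The mu chain's constant exons are spliced to a rearranged variable segment, so different Ighm probe sets can read different ends and different forms of the transcript.

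The probe set suffixes say what the array design gave each one. Among the 11, 4 end in _at, which marks probes unique to 1 transcript, and 3 in _a_at, which marks probes shared by transcripts of 1 gene. Another 3 end in _x_at, whose probes may cross-hybridise, and 1 ends in _s_at, whose probes are shared by transcripts from more than 1 gene. A source sequence identifier was listed for 9 of them, and 1427869_at and 1427870_x_at share theirs. In the RefSeq gene table of assembly GRCm38.p6, Ighm (Entrez gene 16019) is a C_region gene that lies between Ighd and Ighj4. Values are log2 expression as deposited. Probes differ in how well they bind, so the values of different probe sets do not rank transcripts.

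The 11 Ighm probe sets did not move alike. In both regions 3 of them, 1427351_s_at, 1427329_a_at and 1425385_a_at, had an EAE mean below the healthy mean, and 8 had an EAE mean above it. Of those 8, 7 changed sign in at least 1 region under some alternative, 1452535_at being the exception: with quantile normalization 4 of the 11 estimates were below 0 in motor and 3 in sensory cortex, and with the array median as a covariate, an alternative added after seeing the data, 6 were in each. Within cohort 1 alone 7 were below 0 in motor and 8 in sensory cortex, and the 3 named ones were below 0 under every alternative run. Over all probe sets on the arrays the estimate was below 0 for 50.8% in motor cortex and for 50.4% in sensory cortex. The 3 that were lower happen to be the 3 with the highest mean values among the 11.

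The probe set with the highest mean, 1427351_s_at, read 11.33, 11.64, 11.39, 11.74, 10.74 and 11.97 in the motor cortex of EAE mice 1 to 6 (median 11.52). In the motor cortex of healthy mice 1 to 4 it read 12.39, 12.69, 12.43 and 12.42. All 6 EAE arrays lay below all 4 healthy arrays, and EAE mouse 5 was the lowest. The means were 11.47 ± 0.43 (SD, n = 6) and 12.48 ± 0.14 (SD, n = 4), so the EAE mice also differed more among themselves. EAE minus healthy was -1.01 ± 0.19 on the log2 scale (limma SE, 95% interval -1.43 to -0.60), which makes the healthy value 2.02-fold the EAE value.

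In sensory cortex 1427351_s_at read 12.11, 11.75, 11.08, 11.29, 11.63 and 12.19 in EAE mice 1 to 6 (median 11.69). The healthy mice 1 to 4 read 12.47, 12.16, 12.60 and 12.61 there. The groups touched in this region: EAE mouse 6 lay above healthy mouse 2, and the other 5 EAE arrays lay below every healthy array. The means were 11.67 ± 0.44 (SD, n = 6) and 12.46 ± 0.21 (SD, n = 4). EAE minus healthy was -0.79 ± 0.21 (95% interval -1.25 to -0.33), a 1.73-fold lower value in EAE.

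The probe set 1427329_a_at followed 1427351_s_at closely from array to array. It read 9.93, 10.38, 10.07, 10.33, 9.55 and 10.67 in the motor cortex of EAE mice 1 to 6 (median 10.20), against 11.12, 11.29, 10.91 and 11.05 in healthy mice 1 to 4. The groups again did not overlap in motor cortex, and EAE mouse 5 was again the lowest. EAE minus healthy was -0.94 ± 0.18 (95% interval -1.32 to -0.55), 1.91-fold lower in EAE. In sensory cortex the EAE mice read 10.61, 10.42, 9.85, 9.94, 10.36 and 10.87 (median 10.39) and the healthy mice 11.07, 10.85, 11.17 and 11.23. EAE mouse 6 was the only EAE array above a healthy one, as for 1427351_s_at, and EAE minus healthy was -0.74 ± 0.18 (95% interval -1.14 to -0.33), 1.66-fold lower.

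The probe set 1425385_a_at had a smaller difference of the same sign. In motor cortex it read 9.42, 9.13, 9.09, 9.23, 9.08 and 9.49 in EAE mice 1 to 6 (median 9.18) and 9.38, 9.46, 9.37 and 9.54 in healthy mice 1 to 4. In sensory cortex it read 9.49, 9.26, 8.98, 8.79, 9.11 and 9.59 in EAE mice 1 to 6 (median 9.18) and 9.47, 9.44, 9.49 and 9.69 in healthy mice 1 to 4. In each region 4 of the 6 EAE arrays lay below all healthy arrays, and EAE mice 1 and 6 lay among them. EAE minus healthy was -0.20 ± 0.09 in motor cortex (95% interval -0.39 to -0.0031) and -0.32 ± 0.15 in sensory cortex (95% interval -0.65 to 0.01), and the second interval includes 0.

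The other 8 Ighm probe sets had small positive estimates, from 0.01 to 0.29 in motor cortex and from 0.02 to 0.32 in sensory cortex, and all 16 of the 95% intervals include 0. The largest were those of 1427869_at in sensory cortex, at 0.32 ± 0.19 (95% interval -0.10 to 0.74), and of 1451949_at in motor cortex, at 0.29 ± 0.22 (95% interval -0.19 to 0.77). For 1425247_a_at the estimates were 0.17 ± 0.08 and 0.15 ± 0.09. The lowest bound of the 16 intervals was -0.38, that of 1451949_at in sensory cortex.

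The ranges of the 8 overlapped between the conditions. In motor cortex 1451949_at ran from 6.82 to 7.99 (median 7.20) in EAE mice and from 6.80 to 7.33 in healthy mice. In sensory cortex 1427869_at ran from 6.81 to 7.59 (median 7.44) and from 6.79 to 7.42. The probe set 1425247_a_at ran from 8.40 to 8.93 in EAE and from 8.43 to 8.55 in healthy motor cortex, and its sensory EAE values of 8.51 to 8.73 lay inside the healthy range of 8.23 to 8.77. For these probe sets an EAE array could be higher or lower than a healthy one.

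Across all 45101 probe sets, limma with Benjamini-Hochberg adjustment over all of them called 0.714% in motor cortex, 0.543% lower and 0.171% higher in EAE. In sensory cortex it called 0.576%, 0.346% lower and 0.231% higher. By the same rule 2 of the 11 Ighm probe sets, 1427351_s_at and 1427329_a_at, were lower in motor cortex and 0 were higher. In sensory cortex 0 of the 11 passed. At an unadjusted p under 0.05 there were 3 of the 11 in motor and 2 in sensory cortex, against 12.1% and 15.2% of all probe sets. Every EAE array lay below every healthy array for 2 of the 11 in motor and 0 in sensory cortex, against 2.98% and 2.92% of all probe sets. Every EAE array lay above every healthy array for 0 of the 11 in either region, against 1.14% in motor and 1.67% in sensory cortex. Since this contrast was in view when the gene was chosen, nothing is read from these shares. The motor count was 0 without any 1 of EAE mice 1, 2 and 3 or of the 4 healthy mice, and the sensory count was 2 without EAE mouse 1. With the animals' numbers as a replicate block beside the cohort term, limma called 20 probe sets in motor cortex in place of 322. Number 3 joins different cohorts, so the cohort term takes up that pair. The EAE estimate of this fit rests on the pairs numbered 1, 2 and 4. Both Ighm probe sets were among the 20, at -0.93 and -0.94, and nothing is read from this either, since the contrast chose the gene. The block joins different animals that share only a number. In sensory cortex 0 were called with the block, in place of 260.

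The size of the difference varied less with single mice than the calls did. For 1427351_s_at, leaving out each mouse in turn gave -1.13 to -0.85 in motor cortex and -0.91 to -0.67 in sensory cortex. Within cohorts 1 and 2 it was -1.08 and -0.95 in motor cortex and -0.68 and -0.91 in sensory cortex. The sensory array of EAE mouse 3 stands apart from its group, with a median correlation of 0.989 with the other arrays of the group. Without that mouse the sensory values were -0.67 for 1427351_s_at, -0.64 for 1427329_a_at and -0.27 for 1425385_a_at.

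Motor and sensory cortex of the same mouse were compared next, since region played no part in choosing the gene. No Ighm probe set was called between the regions: 0 of 11 passed limma's test with the mouse as a block, where 8.36% of all probe sets did, 4.01% lower and 4.35% higher in motor cortex. Of the 11, 0 had an unadjusted p under 0.05, against 20.6% of all probe sets. For 1427351_s_at motor minus sensory was -0.11 ± 0.12 (SE, log2, 95% interval -0.38 to 0.15, limma adjusted p 0.681), and for 1427329_a_at it was -0.11 ± 0.11 (95% interval -0.34 to 0.13, limma adjusted p 0.661). The smallest limma adjusted p among the 11 was 0.392, for 1452535_at at 0.09 ± 0.05. A regional difference within these intervals was not detectable with 10 mice.

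Single mice did differ between their regions, and in both directions. Motor minus sensory for 1427351_s_at was -0.77, -0.11, 0.31, 0.45, -0.90 and -0.22 in EAE mice 1 to 6, with a mean of -0.20 (SD 0.55). In healthy mice 1 to 4 it was -0.08, 0.52, -0.17 and -0.19, with a mean of 0.02 (SD 0.34). Motor cortex was the higher of the pair in 2 of 6 EAE mice and 1 of 4 healthy mice. EAE mouse 5, the lowest mouse in motor cortex at 10.74, read 11.63 in sensory cortex, and healthy mouse 2, the highest in motor cortex at 12.69, was the lowest healthy mouse in sensory cortex. Whether the EAE difference itself was larger in 1 region was not tested, and the intervals of -1.43 to -0.60 and -1.25 to -0.33 overlap over most of their length.

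Cohort was likewise not used to choose the gene. On the means of each mouse's arrays limma called 0.0% of all probe sets between cohort 2 and cohort 1, so 0 of 11 called says nothing particular about Ighm. At an unadjusted p under 0.05 there were 0 of the 11 and 9.16% of all probe sets (4131). For 1427351_s_at cohort 2 minus cohort 1 was 0.06 ± 0.15 (95% interval -0.26 to 0.39, limma adjusted p 0.944), and the smallest limma adjusted p among the 11 was 0.589, for 1425247_a_at at -0.12 ± 0.06.

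Among the 6 EAE mice, the level of 1427351_s_at showed no detectable relation to clinical grade. The means of its motor and sensory values were 11.72, 11.69 and 11.24 in the mice of cohort 1, with grades 2.5, 3 and 2.75. In cohort 2 they were 11.51, 11.18 and 12.08, with grades 3, 3.5 and 3.5. The lowest and the highest of the 6 mice thus shared a grade. Pearson's r was 0.107 (exact permutation p 0.828, two-sided, adjusted p 0.911 over the 11 probe sets) and Spearman's rho was -0.088 (exact permutation p 0.889, adjusted p 0.922). Without the 2 mice farthest from the median grade, where 3 mice tie, r was between -0.30 and 0.97, so its sign rests on which mice are left out. Within cohorts 1 and 2, with 3 mice each, r was -0.047 and 0.153.

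The correlation with grade was further from 0 for some probe sets whose EAE intervals include 0, and none passed adjustment over the 11. For 1427756_x_at r was 0.935 and rho 0.971, with exact permutation p of 0.00556 and 0.0111 and adjusted p of 0.0611 and 0.122. The first of these p-values is the smallest that 6 mice with tied grades allow. Without the farthest mice its r was 0.93 to 0.96, and within the cohorts, with 3 mice each, it was 0.960 and 0.997. Grades were 2.5 to 3 in cohort 1 and 3 to 3.5 in cohort 2, so grade and cohort overlap. EAE mice 5 and 6 of cohort 2 share a grade, and little is read from so few mice. For 1451949_at r was 0.870 and rho 0.853 (exact permutation p 0.0389 and 0.0444, adjusted p 0.168 and 0.163). The median of all probe sets on the same mice's arrays had an r of -0.812 with grade (exact permutation p 0.0611). Both probe sets moved inversely to that median, as described below. The part of the array median in the relation to grade was not tested.

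The Ighm probe sets fell into sets that tracked each other, a grouping made after the values were seen. Over the 20 arrays, the 3 pairs among 1427351_s_at, 1427329_a_at and 1425385_a_at correlated at 0.79 to 0.99, and at 0.73 to 0.97 with the mean of each region and condition removed. The first and second of these differed by 1.19 to 1.53 on every array (median 1.34), so their values ran nearly parallel. The 6 pairs among 1451949_at, 1427869_at, 1425324_x_at and 1427756_x_at correlated at 0.77 to 0.92, and at 0.77 to 0.93 with those means removed. Between these sets of 3 and 4 the correlations were -0.40 to -0.12, and -0.36 to 0.04 with those means removed. Pairs across the sets thus did not track each other as pairs within a set did.

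The remaining 4 probe sets, 1425247_a_at, 1427870_x_at, 1452535_at and 1426196_at, correlated among themselves at -0.06 to 0.54 and with the first 3 at -0.49 to -0.28. Sharing a source sequence did not bring probe sets together: 1427869_at and 1427870_x_at, which share one, correlated at -0.30. These correlations are over arrays that share mice and processing, and are given as a description. The deposited annotation does not say which exon or splice form each probe set reads, and no Ighm sequence was used here.

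The set of 4, which are the members that correlated under -0.7 with the median of the array, moved inversely to its overall level. Array medians over all probe sets ran from 8.22 to 8.32, with a gap between 8.24 and 8.28 that left 8 arrays below it and 12 above. The 8 were 3 EAE and 1 healthy array in each region. The probe set 1451949_at read 7.33 to 7.99 on the 8 arrays and 6.76 to 7.09 on the 12, and 1425324_x_at read 7.01 to 7.44 and 6.26 to 6.85. Neither overlapped, while 1427869_at (7.42 to 7.72 and 6.63 to 7.54) and 1427756_x_at (6.58 to 6.83 and 6.27 to 6.67) did. Of all probe sets 0.559% did not overlap in that direction. Nothing is read from this share, since choosing the 4 by their correlation with the median partly fixes such a separation. Their correlations with the array median were -0.915 and -0.934, and those of 1427869_at and 1427756_x_at were -0.891 and -0.786.

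The 3 probe sets that were lower in EAE did not share that pattern. Their correlations with the array median were 0.19 to 0.26, and each had overlapping ranges on the 8 and the 12 arrays. With the array median as a covariate EAE minus healthy was -1.03 in motor and -0.75 in sensory cortex for 1427351_s_at, and -0.98 and -0.71 for 1427329_a_at. These are close to the values without the covariate.

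No other B cell gene was called, which says little, since few genes of any kind were. B cell receptor and identity genes were measured for 18 of 19 entries, each by its brightest probe set, and 0 were higher and 0 lower in either region, where limma called 1.14% of all genes in motor and 0.786% in sensory cortex. At an unadjusted p under 0.05 there were 5 in motor and 3 in sensory cortex, where 14.5% and 17.0% of all genes were. The median changes were 0.08 and 0.04, against -0.01 and 0.00 over all genes. The receptor's signalling partners Cd79a and Cd79b, named after their values were seen, stood at 0.01 ± 0.09 and -0.05 ± 0.09 in motor cortex, and Cd79a ran from 7.13 to 7.54 in EAE and from 7.18 to 7.49 in healthy mice.

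The 4 B cell entries with the highest values had changes of either sign and did not pass. The adaptor gene Blnk stood at 0.52 ± 0.21 in motor cortex (limma adjusted p 0.331) and Cd22, an inhibitory co-receptor, at 0.16 ± 0.09. The kinase gene Btk stood at -0.10 ± 0.08. Bank1, a scaffold in B cell receptor signalling, was at -0.36 ± 0.08 in motor and -0.39 ± 0.11 in sensory cortex (limma adjusted p 0.075 and 0.131), and its correlation with 1427351_s_at was 0.670. Ebf1, a transcription factor that commits cells to the B lineage, named after its values were seen, was at -0.37 ± 0.10 and -0.37 ± 0.12 (limma adjusted p 0.121 and 0.178), with a correlation of 0.593. With the group means removed these correlations were 0.374 for Bank1 and 0.022 for Ebf1. Both estimates of Bank1 and of Ebf1 were further below 0 than those of the Ighm probe set 1425385_a_at. Ms4a1 and Cr2, also named after their values were seen, were above 0 in motor cortex, at 0.28 ± 0.10 and 0.16 ± 0.06 (limma adjusted p 0.277 and 0.325). In sensory cortex they were at 0.01 ± 0.11 and 0.12 ± 0.11. Cd72, named likewise, was at 0.15 ± 0.05 there (limma adjusted p 0.204). The mean of the whole B cell list ran from 7.49 to 7.62 in EAE and from 7.45 to 7.53 in healthy motor cortex.

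Plasma cell genes were measured for 12 of 13 entries, with 0 called and 0 at an unadjusted p under 0.05 in either region. Of all genes, limma called 1.14% in motor and 0.786% in sensory cortex, and 14.5% and 17.0% had an unadjusted p under 0.05. Xbp1, a transcription factor of secretory cells that many other cells also express, stood at -0.08 ± 0.09 in motor cortex, Mzb1, an endoplasmic reticulum chaperone for the mu chain, at 0.01 ± 0.07, and Derl3, a protein of endoplasmic reticulum quality control, at -0.01 ± 0.09. Txndc5, a disulfide isomerase of the same compartment, stood at -0.12 ± 0.06 in both regions, not past the threshold in either, and its correlation with 1427351_s_at was 0.544, or 0.047 with the group means removed. Jchain, which joins secreted IgM and is named after its values were seen, ran from 6.70 to 7.21 in EAE and from 6.99 to 7.18 in healthy motor cortex. It stood at -0.04 ± 0.08 there and at 0.09 ± 0.14 in sensory cortex.

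No other immunoglobulin chain was called, which says little, since few probe sets of any kind were. In all 34 probe sets with a single symbol measured 20 further immunoglobulin genes, and limma called 0 of them lower or higher in either region. Of all probe sets it called 0.714% in motor and 0.576% in sensory cortex. By gene, 1 of 20 had an unadjusted p under 0.05 in motor and 3 in sensory cortex. Of all genes 14.5% and 17.0% did. The probe sets' correlations with 1427351_s_at ran from -0.62 to 0.26. Igha, the heavy chain of IgA, had changes of 0.07 ± 0.09 and 0.19 ± 0.09 in motor and sensory cortex, Ighg3, an IgG heavy chain, of 0.10 ± 0.08 and 0.13 ± 0.09, and Igk, a light chain, of 0.16 ± 0.06 and 0.05 ± 0.09. The 4 probe sets that list Ighm with other symbols had changes of 0.07 to 0.27 (motor) and 0.04 to 0.19 (sensory), with 0 called.

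Genes of IgM receptors and carriers, Fcmr, Pigr, Fcamr and Cd5l, had changes of -0.03 to 0.13 (motor) and 0.00 to 0.08 (sensory), with 0 of 4 called. The T cell list had a mean of 7.33 to 7.51 in EAE and 7.17 to 7.28 in healthy motor cortex, and of 7.41 to 7.67 and 7.13 to 7.35 in sensory cortex. Of its 8 measured members 0 passed. Ccl5, a chemokine gene, had the largest changes, at 0.53 ± 0.12 and 1.05 ± 0.26, while Cd3e, a chain of the T cell receptor complex, was at 0.02 ± 0.08 and 0.01 ± 0.07. Its part in the Ighm values was not tested. The lists of T cells, red blood cells, choroid plexus and meninges had 0 members called in either region. At an unadjusted p under 0.05 they had 3, 0, 0 and 1 in motor cortex and 5, 0, 1 and 3 in sensory cortex, out of 8, 5, 9 and 10 measured. Of all genes 14.5% in motor and 17.0% in sensory cortex had such a p, and limma called 1.14% and 0.786%. Cortical neuron genes, which check the labelled tissue, were high in all groups, with list means between 12.6 and 13.0, and Snap25, a synaptic vesicle fusion protein, had a mean of 14.3.

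Of 5 genes of microglia, the resident macrophages of the brain, 1 fell in each region, P2ry12, a purine receptor of resting microglia, which fell by 0.97 ± 0.11 in motor cortex (limma adjusted p 0.00442) and fell by 0.98 ± 0.16 in sensory cortex (limma adjusted p 0.036). The other 4 did not pass: Csf1r, a growth factor receptor, was at -0.19 ± 0.07 and -0.09 ± 0.09, Tmem119, a membrane protein of resident microglia, at -0.21 ± 0.07 and -0.18 ± 0.07, and the fractalkine receptor gene Cx3cr1 at -0.56 ± 0.14 and -0.71 ± 0.23. Aif1, which encodes the calcium-binding protein Iba1, had the other sign, at 0.07 ± 0.19 and 0.38 ± 0.22. At an unadjusted p under 0.05 there were 4 and 3 of the 5, against 14.5% and 17.0% of all genes. Of all genes limma called 1.14% in motor and 0.786% in sensory cortex. The list mean was 10.19 to 10.40 in EAE and 10.60 to 10.75 in healthy motor cortex, and 9.96 to 10.50 and 10.50 to 10.70 in sensory cortex. P2ry12 correlated with 1427351_s_at at 0.866 over the arrays, and at 0.619 with the group means removed. For Cx3cr1 these were 0.551 and -0.052, and for Aif1 -0.150 and 0.156. The part of microglia in the Ighm values was not tested, and in bulk tissue fewer cells of a type and less RNA per cell cannot be told apart.

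The genes whose pattern over the 20 arrays was most like that of 1427351_s_at were Inf2, Car2, Abi3bp, Siglech and Bcas1, with Pearson r of 0.917, 0.899, 0.892, 0.885 and 0.884. With the means of each region and condition removed, r was 0.777, 0.661, 0.677, 0.763 and 0.744, so the likeness was partly that of mice within a group. The median r over 18193 genes was 0.01. Inf2 encodes a formin that remodels actin, Car2 a carbonic anhydrase abundant in oligodendrocytes, Abi3bp a matrix protein, Siglech a lectin of microglia, and Bcas1 a protein of myelin-forming oligodendrocytes. No gene of the B cell, plasma cell or immunoglobulin lists was among them. That absence says little, since those lists hold few of the 18193 genes and only the genes most alike were named.

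These 5 genes were also lower in EAE, which their choice by likeness partly fixes, and their values are given as a description. In motor cortex EAE minus healthy was -0.49 ± 0.09 for Inf2, -0.49 ± 0.08 for Car2, -1.50 ± 0.08 for Abi3bp, -0.40 ± 0.09 for Siglech and -0.49 ± 0.08 for Bcas1. In sensory cortex it was -0.55 ± 0.10, -0.40 ± 0.08, -1.56 ± 0.29, -0.32 ± 0.10 and -0.46 ± 0.08 in the same order. The difference of 1427351_s_at was larger than those of 4 of the 5 in both regions and smaller than that of Abi3bp, on the log2 scale of each probe set.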

How the data were processed

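The deposited values are log2 expression of 45101 Affymetrix probe sets on 20 arrays. Per the submitters' processing notes the tools were RMA and Partek, whose versions are not given in the sources used here. The RMA method subtracts background, equalises array distributions and summarises probes, which compresses low signals. No detection calls or raw scans were used here, and precision is limited by the number of arrays. Names come from the platform annotation, in which 34958 probe sets had 1 symbol, 932 had several and 9211 were not listed.

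All probe sets were fitted with limma 3.58.1 in R 4.3.3 (lmFit, eBayes, two-sided), with Benjamini-Hochberg adjustment and calls at an adjusted p under 0.05. Cohort was a covariate within each region, the mouse a block between regions, and condition a covariate between cohorts. The labels' animal numbers show that both arrays of a number and condition come from 1 mouse. EAE and healthy arrays of a number come from different animals, and number 3 joins different cohorts. Their deviations from the group means correlated at 0.107 to 0.339 in the 4 motor pairs. In the 4 sensory pairs these correlations were -0.283 to 0.454. All 4 motor correlations were positive but weak, and no values for pairs of unlike number stand beside them. The block on these numbers is an alternative, with its motor values beside the result. It keeps the cohort term, so number 3 adds nothing to its EAE estimate. Grade was tested by exact permutation over 6 EAE mice. Fits were checked on simulated data. Genes in lists are read by their brightest probe set. Named genes were all Ighm probe sets, the 5 genes most like the brightest one, and the 4 list members with the highest means; others are marked. Members and lists were chosen with earlier results of these data known. P-values measure the spread between mice, and those between regions measure the spread of the regional difference from mouse to mouse. Alternatives were another normalization, a filter on low values, a trended prior variance, 1 probe set per gene, no cohort term, a replicate block, single cohorts, and leaving out mice or the second processing day, which holds 1 healthy array per region (motor of healthy mouse 4, sensory of healthy mouse 1) and no EAE array.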

Additional observations from a re-analysis of the deposited data

Results flagged for a closer look

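Of 44 groups of values (11 Ighm probe sets in 4 groups), 5 held an array far from the rest by Dixon's criterion, which chance meets in about 1 of 20 groups. The motor value of healthy mouse 2 for 1427351_s_at was 12.69, against 12.43 for the next, and for 1427756_x_at it was 6.67 against 6.51. Its sensory value for 1427869_at was 7.42 against 6.85. The sensory array of EAE mouse 3 read 7.85 for 1452535_at, against 7.57 for the next, and 6.86 for 1426196_at, against 6.32. Both arrays of healthy mouse 2 are among the 8 with lower medians, and the sensory array of EAE mouse 3 is the one that stands apart from its group.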

How the results depend on the processing

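Under the alternatives run, 1427351_s_at, 1427329_a_at and 1425385_a_at kept EAE estimates below 0 in both regions, while 7 of the other 8 (all but 1452535_at) changed sign in at least 1. Of the values that are not counts, 6 moved by more than the spread between mice, each in a fit within 1 cohort, of 1427870_x_at, 1425247_a_at and 1427756_x_at. Over all probe sets the motor count of 322 called became 85 without the second processing day (in motor cortex the array of healthy mouse 4 alone, in sensory cortex that of healthy mouse 1), 3 and 16 within cohorts 1 and 2, 20 with the replicate block, 523 with the array median as covariate, and 34 to 345 with 1 mouse left out. The sensory count of 260 became 465 with the filter on low values, 884 with a trended prior variance, 438 with 1 probe set per gene, 7 without the second processing day, 0 and 15 within the cohorts, 0 with the replicate block, 93 with the array median as covariate, and 6 to 1370 with 1 mouse left out. Quantile normalization gave 132 higher and 127 lower there, against 104 and 156. The motor against sensory count of 3771 became 2408 with 1 probe set per gene, 2166 without the second day, 669 and 1292 within the cohorts, 1997 and 839 in healthy and EAE mice fitted alone, 863 and 1616 in 1 fit, and 2825 to 4959 with 1 mouse left out. The cohort count was 0 throughout.

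The 2 Ighm probe sets called in motor cortex were 1 under quantile normalization and 0 without the second processing day or within either cohort. With the replicate block the estimates of 1427351_s_at were -0.93 (motor) and -0.70 (sensory). The causes of these shifts were not tested.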
